A study of Mus musculus with 7 samples.

Results

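The genes described here are 9 matrix proteases, their activators and their inhibitors. They were measured in cells described as mouse embryonic fibroblasts, a name set against marker genes below. The genes are the metalloproteases Mmp2, Mmp3, Mmp10 and Mmp14, the inhibitors Timp1, Timp2 and Timp3, and the plasminogen activators Plau and Plat. They were chosen by name, and each probe set annotated to one of them was taken, which gave 20 of the 22690 probe sets on the array. RNA was measured on 7 Affymetrix arrays, 1 per group. The tested genotype was p53-/- Dnmt1-/- (called p53-Dnmt1-null below), profiled untreated, after 24 h and 48 h of TSA and 2 weeks after TSA was taken away. The other genotype was p53-/- (p53-null), profiled untreated and at the same times of TSA. All 7 arrays therefore came from cells without p53, the tumour suppressor, and 4 of them from cells that also lacked Dnmt1, the methyltransferase that copies DNA methylation at replication. TSA, trichostatin A, inhibits histone deacetylases. The labels name no separate cultures, no TSA dose and no means by which the genes were removed, so genotype and culture cannot be told apart.

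Metalloproteases are zinc enzymes that are secreted or held at the cell surface as inactive precursors and that cut collagens, laminins, proteoglycans and one another once activated. MMP14 sits in the membrane and activates pro-MMP2 with the help of TIMP2, which in this complex acts as an adaptor and at higher amounts as an inhibitor. MMP3 and MMP10 are the stromelysins, whose genes are induced in fibroblasts by cytokines and growth factors through AP-1. The plasminogen activators form plasmin, which cuts fibrin and activates several pro-MMPs. RNA says nothing of how much of an enzyme is active.

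The promoters of 4 of these genes are shown because they differ in the motifs and in the CpG content through which AP-1 and DNA methylation can act. RefSeq promoter windows (GRCm38.p6, 250 bases before to 50 after the start) matched 6 of the 9 genes. Each line gives the 120 bases before the annotated start on the gene's strand, 5′ to 3′, with matches to the AP-1 motif TGANTCA, the TATA box TATAAA and the GC box GGGCGG in capitals, searched on both strands.
Mmp3, chr9:7445702-7445821, plus strand: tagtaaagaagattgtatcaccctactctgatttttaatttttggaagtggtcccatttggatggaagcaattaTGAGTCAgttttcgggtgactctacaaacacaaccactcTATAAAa
Mmp10, chr9:7502222-7502341, plus strand: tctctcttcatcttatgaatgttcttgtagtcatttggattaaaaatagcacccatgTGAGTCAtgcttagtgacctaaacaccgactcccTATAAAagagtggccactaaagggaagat
Mmp14, chr14:54431478-54431597, plus strand: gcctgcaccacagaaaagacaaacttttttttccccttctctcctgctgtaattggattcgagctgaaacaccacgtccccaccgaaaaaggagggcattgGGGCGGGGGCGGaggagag
Timp3, chr10:86300292-86300411, plus strand: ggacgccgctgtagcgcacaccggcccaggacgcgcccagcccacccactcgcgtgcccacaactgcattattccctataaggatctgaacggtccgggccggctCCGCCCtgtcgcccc

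The stromelysin genes lie on the same chromosome and both held 1 AP-1 match and 1 match to the TATA box letters. The AP-1 match started at position -46 in Mmp3 and -63 in Mmp10, counted from the base before the start as -1. The TATA letters were placed differently, starting at -7 in Mmp3 and at -29 in Mmp10. Among all 32851 promoter windows 7.81% held the AP-1 motif, 13.6% the TATA box and 35.7% the GC box. Of the 300 bases around the start, Mmp3 had 1 CpG and Mmp10 had 2, against a median of 7 over all windows. Timp3 had 24 CpGs, Timp2 had 25, Mmp14 had 10 and Timp1 had 8. Mmp14, Timp1, Timp2 and Timp3 held GC boxes and none of the AP-1 or TATA letters. Methylation was not measured here, and a match describes the letters only.

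Signals below are the deposited MAS5 values, linear and with the arrays scaled alike by the authors. Differences are on the scale of log2(signal + 11.4), where the offset is the 25th percentile of all signals and shrinks the differences of dim probe sets. A probe set was tested if its signal passed the pooled median of 45.6 on at least 1 array. This held for 17 of the 20 probe sets and 8 of the 9 genes. Median signals of the arrays ran from 41.9 to 48.8. Dnmt1 had 74.0 to 206.5 on the p53-Dnmt1-null arrays and 308.2 to 695.6 on the p53-null arrays, the direction the labels give. The 18S ribosomal RNA control at the 3′ end had its highest signal, 2549.1, on the p53-Dnmt1-null 24 h array. The ratio of 3′ to 5′ signal of Gapdh was between 0.83 and 0.91 on all 7 arrays.

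The labelled cell type was checked against marker genes. Of 10 fibroblast markers 9 were lower in p53-Dnmt1-null cells by limma and 1 did not pass, and their summed signal was 6129.4 to 10793.0 in p53-Dnmt1-null cells against 25741.4 to 30198.4 in p53-null cells. All 9 measured epithelial or mesothelial markers were higher, with sums of 10868.1 to 18992.7 against 150.4 to 420.1. Of these, 7 passed the filter only through p53-Dnmt1-null arrays, so the filter set their direction. Macrophage markers summed to 249.6 to 495.1 against 160.7 to 208.8, with 3 of the 4 tested members of 8 higher. The filter set the direction of Itgb2 among these 3. The defining leukocyte gene Ptprc was at 6.2 to 11.9 and 1.1 to 4.0. Endothelial markers overlapped, at 32.4 to 118.5 and 82.4 to 105.5. The p53-Dnmt1-null arrays thus held signal of both lists, and the p53-null arrays mainly of the fibroblast list. Much of the fibroblast sum on the p53-Dnmt1-null arrays was Vim, the marker that did not pass. Vim had 5044.9, 5732.6, 4499.1 and 4047.7 there (0, 24 and 48 h of TSA and after removal), against 5662.4, 5910.4 and 6432.2 in p53-null cells. The genotype differences below come from the same arrays as these marker differences, whose part in them was not tested. In these bulk samples fewer cells of a type and less RNA per cell cannot be told apart.

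The metalloproteases Mmp2 and Mmp14, and the inhibitors Timp1 and Timp2, were lower in p53-Dnmt1-null cells. Mmp3 was lower too, but the filter set its direction in this test. Timp3, Plat and Mmp10 did not pass the test, and Plau was dim on every array. Over the 6 arrays at 0, 24 and 48 h, 11 of the 17 tested probe sets were lower by limma at an adjusted p under 0.05, 0 were higher and 6 did not pass. Of all 14012 probe sets tested, 2701 (19.3%) were lower and 2464 (17.6%) higher, 36.9% in all. An unadjusted p under 0.05 was found for 13 of the 17, against 46.8% of all. The median difference was -1.15 over the 17 probe sets and 0.02 over all probe sets. By gene, 5 of the 8 with a tested probe set were lower in all of their tested probe sets. Probe sets of a gene share its RNA and are not independent. Mmp3, counted among the 11 probe sets and the 5 genes, entered the test only through p53-null arrays, where it is high. The filter thus set its direction, and its call in this test supports nothing. Several probe sets below are described as without overlap between the genotypes. How many of all probe sets were without overlap was not counted.

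**Figure D1:**
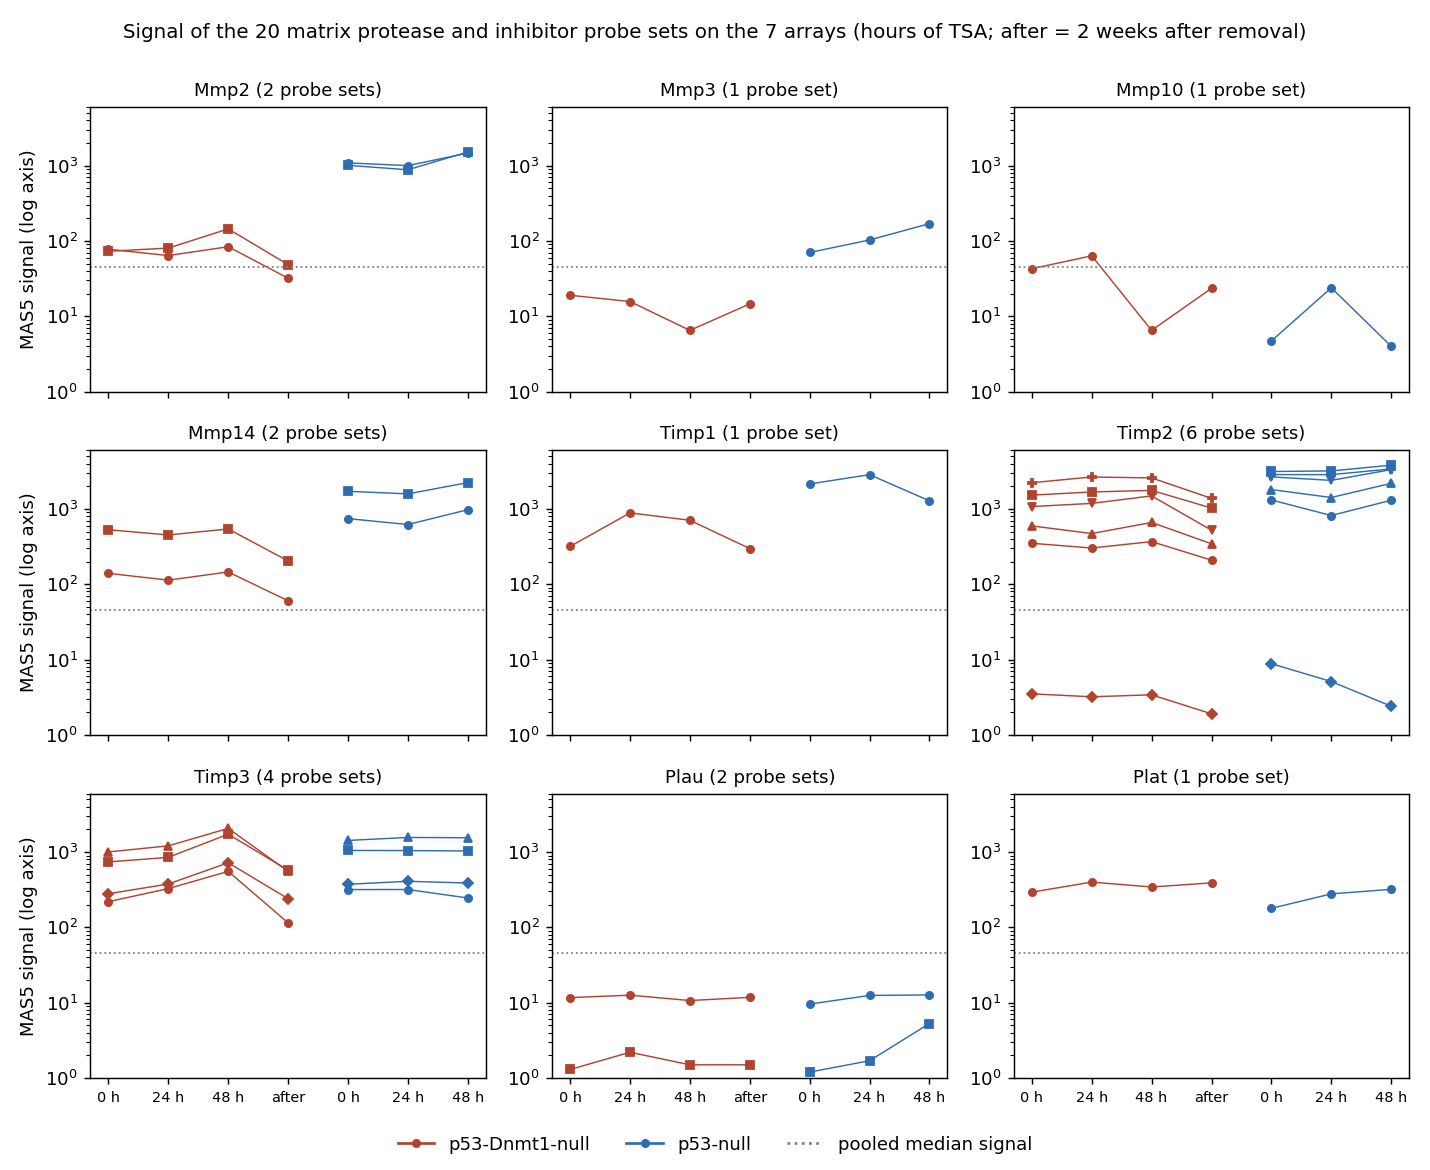
MAS5 signal (log axis) of the 20 probe sets of the 9 genes on each array, p53-Dnmt1-null arrays left and p53-null arrays right; each line is 1 probe set, and the dotted line is the pooled median of 45.6. Mmp2, Mmp3, Mmp14, Timp1 and the tested Timp2 probe sets sit lower on every p53-Dnmt1-null array than on every p53-null array. The share of all probe sets that do so was not counted. Timp3 overlaps, and Plau stays below the dotted line.

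Mmp2 encodes gelatinase A, which cuts denatured collagen and basement membrane collagen. Its probe set 1416136_at had 77.6, 64.0 and 83.8 in the p53-Dnmt1-null line (0, 24 and 48 h of TSA) and 32.0 after removal, against 1087.9, 1001.1 and 1466.5 in p53-null cells. The other probe set, 1439364_a_at, had 73.0, 80.4, 144.5 and 48.5 against 1009.2, 881.2 and 1518.8. In both, every p53-Dnmt1-null array lay far below every p53-null array. The genotype difference was -3.78 ± 0.17 (SE; 3 arrays in each genotype; limma adjusted p = 2.09e-06) and -3.39 ± 0.17 (limma adjusted p = 3.54e-06). These were the largest differences among the 17 probe sets.

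Mmp14 encodes the membrane protease that activates pro-MMP2 and cuts fibrillar collagen. Its probe set 1448383_at had 528.2, 450.7 and 540.4 in p53-Dnmt1-null cells and 203.6 after removal, against 1711.3, 1582.6 and 2232.4 in p53-null cells. The other, 1416572_at, had 139.3, 113.2, 145.3 and 60.2 against 742.7, 619.7 and 974.9. The genotypes did not overlap in either, and in both genotypes the 24 h array was the lowest of the first 3 times and the 48 h array the highest. The genotype difference was -1.83 ± 0.14 (limma adjusted p = 2.54e-05) and -2.44 ± 0.17 (limma adjusted p = 2.05e-05). Both probe sets stayed above the pooled median on all p53-Dnmt1-null arrays.

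Mmp3, stromelysin-1, cuts proteoglycans and laminin and activates other pro-MMPs. It had 19.0, 15.7 and 6.5 in p53-Dnmt1-null cells and 14.6 after removal, against 70.3, 103.1 and 169.8 in p53-null cells. All p53-Dnmt1-null values were below the pooled median and all p53-null values above it. Mmp3 thus entered the test only through p53-null arrays, so the filter set its direction and the call below supports nothing. With no filter the limma adjusted p of Mmp3 was 0.0114. The difference was -2.28 ± 0.34 (limma adjusted p = 0.00118) and was -1.43, -2.08 and -3.34 at 0, 24 and 48 h. Its size depends on the offset, since its p53-Dnmt1-null signals are dim: it was -1.39 with the offset at the pooled median and -2.99 with an offset of 1. Mmp10, stromelysin-2, ran the other way in untreated cells. It had 42.8, 63.5, 6.5 and 23.5 on the p53-Dnmt1-null arrays against 4.7, 23.9 and 4.0 on the p53-null arrays. Only the p53-Dnmt1-null 24 h array passed the pooled median, and the genotypes overlapped. Its difference was 1.02 ± 0.37 (limma adjusted p = 0.0582), at 1.75, 1.09 and 0.22 at 0, 24 and 48 h. Without the 48 h arrays, where its difference was smallest, it was called at 1.42 (limma adjusted p = 0.0247). Its adjusted p was also under 0.05 with the offset at the pooled median and with no intensity trend. Mmp10 entered the test only through the p53-Dnmt1-null 24 h array, so the filter set its direction and these calls support nothing.

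**Figure D2:**
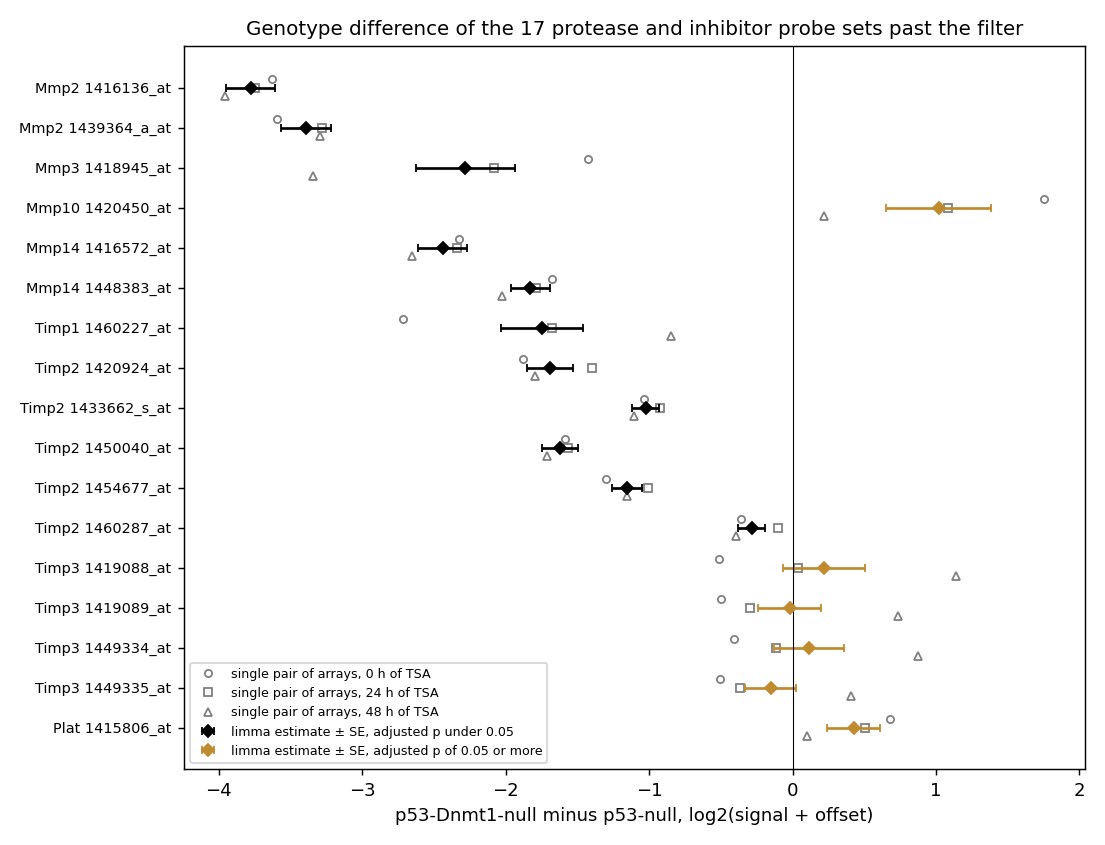
Genotype difference (p53-Dnmt1-null minus p53-null, log2 scale) of the 17 probe sets past the filter; open symbols are single pairs of arrays at 0, 24 and 48 h of TSA, diamonds the limma estimate with its SE, black where the adjusted p was under 0.05. The estimates run from -3.78 for Mmp2 to 1.02 for Mmp10, and the open symbols of Mmp3, Mmp10, Timp1 and Timp3 are the most spread out with time.

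Timp1 is a secreted inhibitor of most soluble metalloproteases. It had 317.2, 884.8 and 705.5 in p53-Dnmt1-null cells and 296.7 after removal, against 2143.9, 2846.3 and 1277.4 in p53-null cells. The highest p53-Dnmt1-null array, at 24 h, was still below the lowest p53-null array, at 48 h. The difference was -1.74 ± 0.29 (limma adjusted p = 0.00187), and the single pairs of arrays gave -2.71, -1.67 and -0.85 at 0, 24 and 48 h. No untreated array matched the 24 h and 48 h times, so TSA and time in culture cannot be told apart.

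Timp2 inhibits MMP2 and takes part in its activation by MMP14. Its 6 probe sets did not give the same difference. Probe set 1420924_at had 349.4, 302.1, 367.7 and 208.3 on the p53-Dnmt1-null arrays against 1313.0, 816.2 and 1302.2 on the p53-null arrays, a difference of -1.69 ± 0.16 (limma adjusted p = 9.39e-05). Probe set 1450040_at had 593.9, 470.3, 660.0 and 343.9 against 1803.7, 1415.0 and 2185.3, a difference of -1.62 ± 0.13. Probe set 1454677_at had 1073.6, 1182.0, 1487.2 and 521.4 against 2657.0, 2390.9 and 3321.1, a difference of -1.15 ± 0.11. These 3 were lower on every p53-Dnmt1-null array than on every p53-null array. Probe set 1433662_s_at, also without overlap, differed by -1.02 ± 0.09. Probe set 1460287_at had 2224.1, 2651.4, 2576.9 and 1378.7 against 2854.1, 2847.4 and 3392.0, again without overlap. Its difference was the smallest of the tested Timp2 probe sets, at -0.29 ± 0.10 (limma adjusted p = 0.0443). Its call was lost in 4 of 11 alternative settings, with an adjusted p of 0.235 without the intensity trend. Probe set 1437081_at stayed between 1.9 and 8.8 and was not tested.

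Timp3 is the inhibitor that binds to the matrix itself and also restrains ADAM proteases. In untreated cells its brightest probe set, 1449335_at, had 1005.3 in p53-Dnmt1-null cells and 1428.9 in p53-null cells. With TSA it had 1210.7 and 2065.1 in p53-Dnmt1-null cells at 24 and 48 h, against 1565.6 and 1551.3 in p53-null cells. All 4 probe sets were lower in p53-Dnmt1-null cells when untreated, by -0.51 to -0.40, and higher at 48 h, by 0.41 to 1.14. The genotype estimates over all 3 times were -0.15 ± 0.18, -0.02 ± 0.22, 0.12 ± 0.24 and 0.22 ± 0.29, with limma adjusted p from 0.524 to 0.952. A difference whose sign changes with TSA counts as error in this fit.

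Plat, the tissue-type plasminogen activator, had 293.9, 400.0 and 344.2 in p53-Dnmt1-null cells and 390.7 after removal, against 179.3, 279.0 and 320.3 in p53-null cells. The genotypes overlapped, and the difference of 0.43 ± 0.19 did not pass (limma adjusted p = 0.104). Plau, the urokinase-type activator, had probe sets at 10.7 to 12.6 and 1.3 to 2.2 in p53-Dnmt1-null cells, against 9.6 to 12.7 and 1.2 to 5.3 in p53-null cells. Both stayed below the pooled median on all 7 arrays and were not tested.

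Described by size alone, 8 of the 17 probe sets were at least 2-fold lower in the p53-Dnmt1-null line at 0, 24 and 48 h alike, and 0 were 2-fold higher at each. Of all 14012 probe sets 6.01% were lower and 4.49% higher by that rule. The 8 were both probe sets of Mmp2 and of Mmp14, Mmp3, and Timp2 probe sets 1420924_at, 1450040_at and 1454677_at. The filter set the direction of Mmp3. Timp1 was short of the 2-fold rule only at 48 h. In untreated cells alone 10 were 2-fold lower (10.7% of all probe sets) and 1, Mmp10, was 2-fold higher (8.75%).

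The shape of Mmp14 over the 7 arrays was most like that of biglycan, Bgn, a matrix proteoglycan, with a Pearson r of 0.997. Mmp3 was most like Rprm, a cell cycle regulator, at 0.990, and Mmp10 most like Tnfrsf9, a receptor of the TNF receptor family, at 0.958. The arrays fall into the genotypes, so high values are common: 298 of 8297 other named genes passed 0.95 with Mmp14 and 167 with Mmp3, though 1 with Mmp10.

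The rest of the protease system was read from lists of named genes, with 1 probe set per gene, the brightest on average. Of the 8298 named genes tested in this way, 19.2% were higher and 19.9% lower in p53-Dnmt1-null cells. Of 43 other metalloproteases 31 had a probe set and 19 were tested; limma called 4 higher and 7 lower and left 8 uncalled, with a median of -0.42. Of these calls 3 of the 7 lower genes passed the filter only through p53-null arrays and 3 of the 4 higher genes only through p53-Dnmt1-null arrays, where each is high, so their direction was set by the filter and their counts support nothing. The membrane metalloprotease Mmp16 had 11.6, 19.6, 8.3 and 2.4 on the p53-Dnmt1-null arrays against 136.3, 172.6 and 370.4 on the p53-null arrays. It differed by -3.18 ± 0.33 (limma adjusted p = 0.000148) and passed the filter only through p53-null arrays, as did Adam19 and Mmp19. Adam19, Mmp19 and Adamts1, a protease of aggrecan and versican, were lower by -1.93, -1.88 and -1.76. Adamts7, Mmp23, Mmp24 and Mmp17 were higher, by 1.52, 1.35, 1.19 and 1.14, and of these Mmp23 alone passed the filter in both genotypes.

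Of 18 genes around the plasminogen system 9 were tested, with 2 higher, 3 lower and 4 not passing. The urokinase receptor Plaur had 325.9, 506.2, 263.8 and 207.5 on the p53-Dnmt1-null arrays against 171.6, 146.6 and 73.7 on the p53-null arrays. It was higher on every p53-Dnmt1-null array, by 1.43 ± 0.22 (limma adjusted p = 0.00121), while its ligand Plau was dim in both genotypes. S100a10, which with annexin A2 binds plasminogen and Plat at the cell surface, was higher by 0.70 ± 0.09 (limma adjusted p = 0.000451). Lrp1, an endocytic receptor that clears proteases bound to inhibitors, was lower by -2.02. Tfpi, an inhibitor of the tissue factor pathway, was lower by -0.71. Masp1, a protease of the lectin pathway of complement rather than of plasmin formation, was lower by -2.98.

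Of 22 other protease inhibitors 13 were tested, with 5 higher, 6 lower and 2 not passing. Reck, a membrane-anchored inhibitor of MMP2, MMP9 and MMP14, had 1.1, 1.6, 1.1 and 8.9 on the p53-Dnmt1-null arrays against 114.3, 306.1 and 365.6 on the p53-null arrays. It entered the test only through p53-null arrays, and its difference was -4.28 ± 0.31 (limma adjusted p = 2.43e-05). Serpinf1, cystatin C (Cst3) and Pcolce2 were lower by -2.74, -1.79 and -1.34. Pcolce2 enhances the processing of procollagen and is no protease inhibitor in the strict sense. The serine protease inhibitors Spint1 and Slpi were higher, by 2.84 ± 0.21 (limma adjusted p = 2.48e-05) and 2.72 ± 0.26. The complement inhibitor Serping1 and the testican Spock2 were higher by 1.71 and 1.49. Spint1, Slpi and Spock2 passed the filter only through p53-Dnmt1-null arrays, where each is high. The filter thus set their direction and that of Reck, so these calls and their part in the counts support nothing.

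Of 18 cysteine, aspartic and other matrix proteases 14 were tested, with 0 higher, 10 lower and 4 not passing, and a median of -0.98. Cathepsin K (Ctsk), a collagen-cutting protease, had 23.4, 16.2, 0.8 and 5.6 on the p53-Dnmt1-null arrays against 248.1, 125.5 and 229.0 on the p53-null arrays, a difference of -3.17 ± 0.34 (limma adjusted p = 0.0002). It was tested only through p53-null arrays. The serine proteases Prss35 and Prss23 were lower by -2.22 and -1.79, and the fibroblast activation protein Fap by -1.17. Prss35 and Fap, like Ctsk, passed the filter only through p53-null arrays, Fap through the 48 h array alone. The direction of these 3 of the 10 was thus set by the filter. Of all named genes 19.9% were lower. With TSA, averaged over genotypes, limma called 0 of the 14, against 0.0241% of all named genes higher.

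Of 21 AP-1 and ETS factors and inducers of metalloproteases 15 were tested, with 3 higher, 5 lower and 7 not passing. Among the AP-1 genes Junb was higher by 1.09 ± 0.21 (limma adjusted p = 0.0041), Fos by 0.74 and Jund by 0.62. Jun at -0.59, Fosl2 at 0.58 and Fosl1 at 0.10 did not pass, and Fosb was not tested. The ETS factors Elk3 and Etv5 were lower by -2.24 and -2.10, and the cytokine receptors Osmr and Il1r1 by -2.04 and -1.39. Etv5 was tested only through p53-null arrays, so the filter set its direction. Il1a, Il1b, Il6 and Tnf stayed below the pooled median on all arrays.

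**Figure D3:**
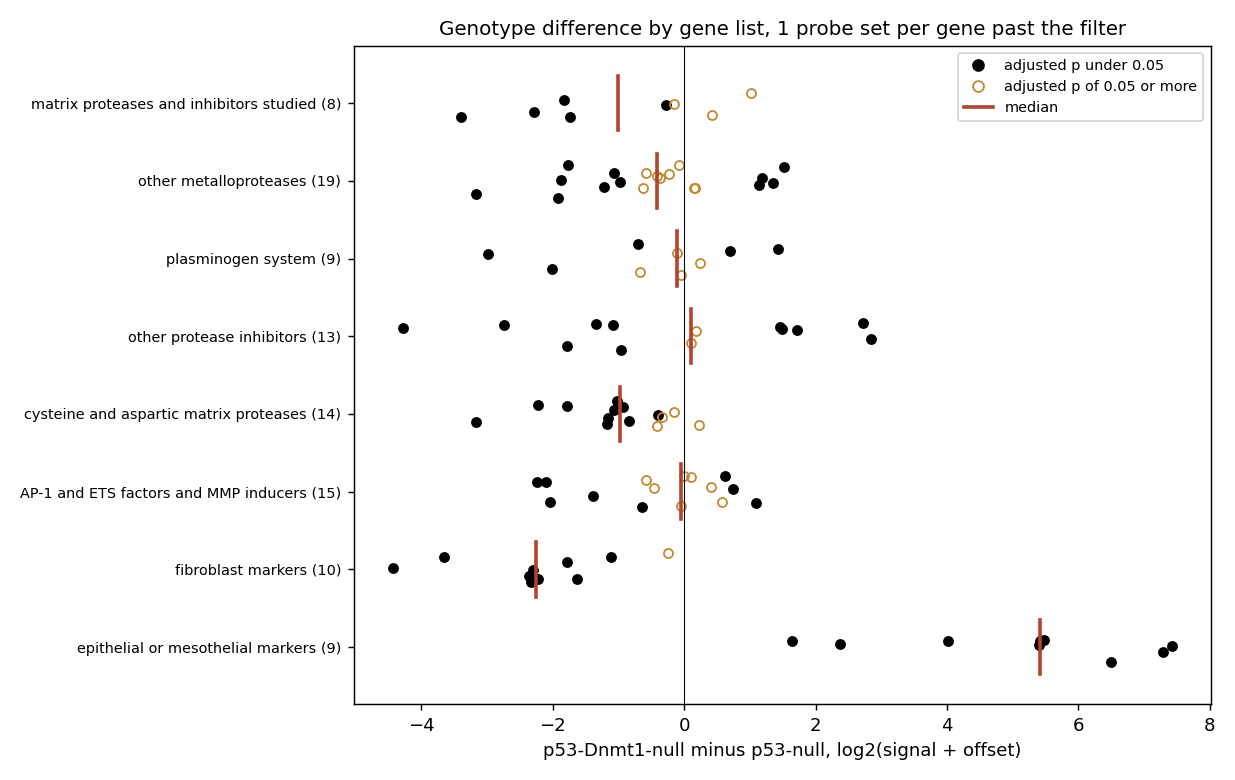
Genotype difference (p53-Dnmt1-null minus p53-null, log2 scale) of each tested gene by list, 1 probe set per gene, filled where the limma adjusted p was under 0.05; the red bar is the list's median. The cysteine and aspartic proteases hold 10 lower, 3 of them tested only through p53-null arrays, and 0 higher. Of all named genes 19.9% were lower and 19.2% higher. The other metalloproteases and inhibitors go both ways, and the fibroblast and epithelial markers lie on opposite sides.

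TSA was added to both genotypes, with 24 h and 48 h pooled in the tests. Limma called 0 of the 17 probe sets in either genotype, in the average over both or in the difference between them. At an unadjusted p under 0.05 there were 2 in p53-Dnmt1-null cells and 1 in p53-null cells, against 1136 (8.11%) and 1206 (8.61%) of all 14012 probe sets, of which limma also called 0 in each. For the difference between the genotypes' changes it was 1 of 17, against 3.43% of all. In the average over genotypes 1 of 17 and 2052 (14.6%) of all had such a p, and limma called 0.0143% of all probe sets. The values below are therefore descriptions of single arrays.

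Timp1 was above its untreated level at both times in the p53-Dnmt1-null line. Its 24 h and 48 h arrays there were 1.45 and 1.13 above the untreated array on the log2 scale, and the array after removal was back at 296.7 against 317.2 untreated. Of the 17 it alone was at least 2-fold higher at 24 h and at 48 h in p53-Dnmt1-null cells, a rule that 1.71% of all probe sets passed. None was 2-fold lower there (0.378% of all), and in p53-null cells none passed the rule in either direction (1.51% of all higher, 1.03% lower). In p53-null cells it was 0.41 above at 24 h and 0.74 below at 48 h. The pooled change was 1.29 ± 0.43 in p53-Dnmt1-null cells (limma adjusted p = 0.528) and -0.17 ± 0.43 in p53-null cells. The difference between these changes was 1.45 ± 0.61, with an unadjusted p of 0.0436 and a limma adjusted p of 0.995.

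All 4 probe sets of Timp3 were higher with TSA in p53-Dnmt1-null cells, more so at 48 h. They had 219.7, 741.2, 279.7 and 1005.3 untreated, 327.8, 851.4, 377.3 and 1210.7 at 24 h, and 554.6, 1730.3, 721.7 and 2065.1 at 48 h, in the order 1419088_at, 1419089_at, 1449334_at and 1449335_at. The same probe sets had 318.2, 1052.3, 374.0 and 1428.9 in untreated p53-null cells, and 246.0, 1034.7, 388.4 and 1551.3 at 48 h. From 24 h to 48 h only 1419089_at was past 2-fold higher in p53-Dnmt1-null cells, as were 3.23% of all probe sets, and no probe set of the 17 in p53-null cells (1.52%). The log2 change from untreated was 0.20 to 0.55 at 24 h and 1.03 to 1.33 at 48 h in p53-Dnmt1-null cells, and at 48 h -0.36 to 0.12 in p53-null cells. The pooled changes in p53-Dnmt1-null cells were 0.65 to 0.92, with limma adjusted p from 0.605 to 0.672.

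Plat was above its untreated level on all 4 TSA arrays, by 0.43 and 0.22 in p53-Dnmt1-null cells and by 0.61 and 0.80 in p53-null cells. Averaged over genotypes the change was 0.51 ± 0.20, with an unadjusted p of 0.0319 and a limma adjusted p of 0.293. Mmp3 went opposite ways in the genotypes, at -0.17 and -0.76 in p53-Dnmt1-null cells and 0.49 and 1.15 in p53-null cells. Mmp10 was above untreated at 24 h in both genotypes, by 0.47 and 1.13, and at 48 h was -1.60 in p53-Dnmt1-null and -0.06 in p53-null cells. It was dim, with only the p53-Dnmt1-null 24 h array above the pooled median. Between 24 h and 48 h it was at least 2-fold lower in both, as was Timp1 in p53-null cells and as were 2.28% of all probe sets in p53-Dnmt1-null cells and 1.89% in p53-null cells. Mmp2 lay between -0.24 and 0.89 on the TSA arrays, and Mmp14 between -0.27 and 0.39.

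**Figure D4:**
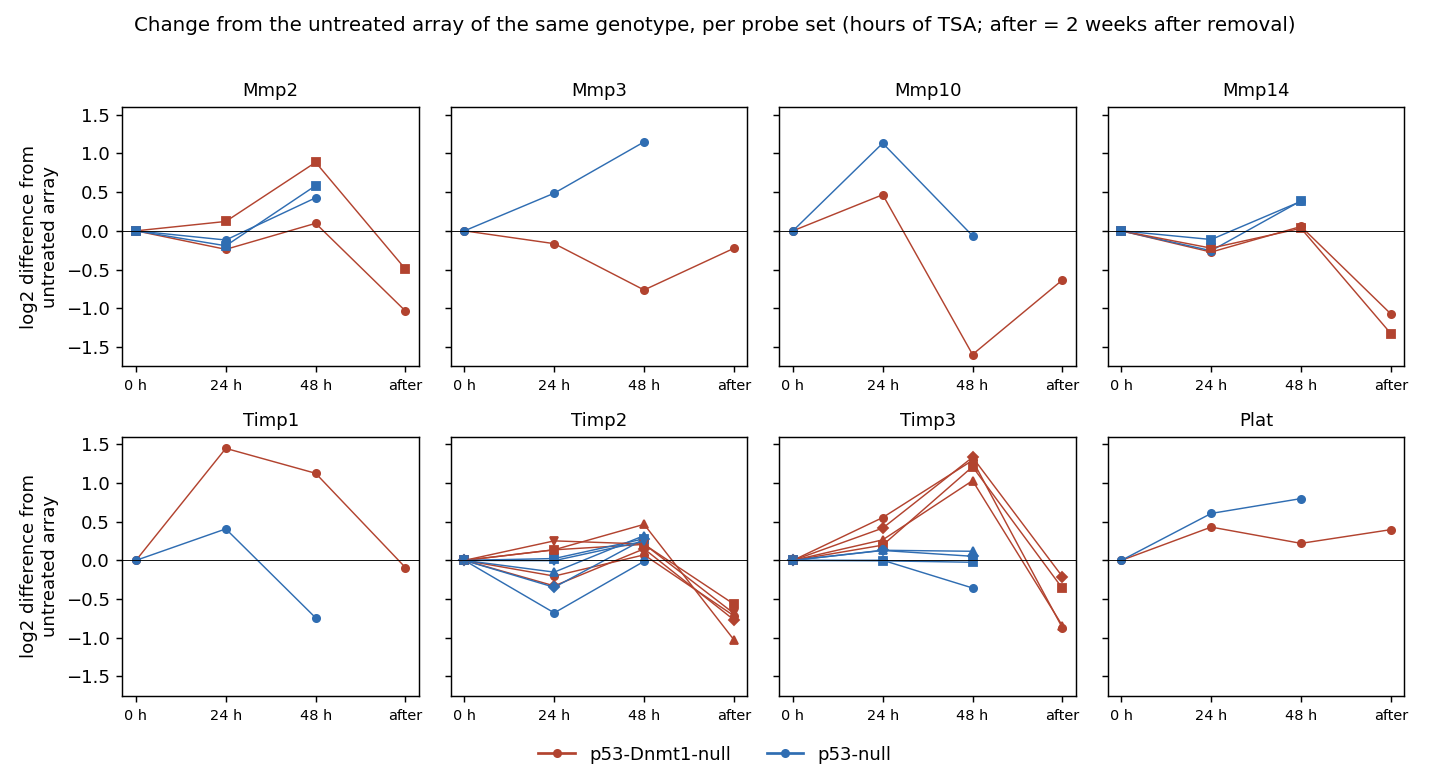
Log2 difference of each tested probe set from the untreated array of its genotype, at 0, 24 and 48 h of TSA and, for p53-Dnmt1-null cells, 2 weeks after removal. Timp1 is 1.45 and 1.13 up with TSA in p53-Dnmt1-null cells, the 4 Timp3 lines are 1.03 to 1.33 up at 48 h there, and 7 of the 8 genes end below 0 after removal. Of all 8298 named genes 3370 were above 0 after removal.

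After TSA removal 16 of the 17 probe sets were below the untreated p53-Dnmt1-null array, the exception being Plat. Timp2 and Timp3 gave 5 and 4 of the 17, and probe sets of a gene are not independent. Of all 8298 named genes, 1 probe set each, 3370 were above 0, with a median of -0.15. The median difference of the 17 was -0.69, against -0.06 over all probe sets. Limma called 0 of the 17, and 7 had an unadjusted p under 0.05. Of all probe sets 18.8% had such a p, and 0.0143% were called. By size, 4 of 17 were at least 2-fold lower, as were 8.44% of all probe sets, and 0 were 2-fold higher (6.73% of all). Mmp14 probe set 1448383_at had 203.6 after removal against 528.2 untreated, a difference of -1.33 ± 0.35 (limma adjusted p = 0.136), and 1416572_at differed by -1.07 ± 0.42. Mmp2 probe set 1416136_at had 32.0 against 77.6, a difference of -1.04 ± 0.41, and 1439364_a_at differed by -0.49 ± 0.51. Timp2 probe set 1454677_at had 521.4 against 1073.6, a difference of -1.03 ± 0.31. Timp3 had 555.2 against 1005.3 in its brightest probe set, at -0.84 ± 0.37, and between -0.87 and -0.21 in the other 3. Timp1 differed by -0.09 ± 0.50, and the dim Mmp3 and Mmp10 by -0.23 ± 0.50 and -0.64 ± 0.96.

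On the array after removal the fibroblast markers summed to 6129.4 against 8753.5 untreated, and the epithelial or mesothelial markers to 10868.1 against 14180.4. The actin control at the 3′ end had 7904.8 against 5421.2. Their part in the lower protease and inhibitor signals was not tested. Against the untreated p53-null array the median difference of the 17 probe sets after removal was -1.65, further from 0 than the -1.30 of the untreated p53-Dnmt1-null array, which shares that control.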

How the data were processed

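The deposited values were linear signal intensities, 1 per probe set and array; the authors used MAS5, per the submitters' processing notes, and its version and the scaling target were not given in sources used here. The deposited intensities had a 2% trimmed mean of 150.1 on every array, so no further scaling was applied. An annotation table gave 1 symbol to 20393 of 22690 probe sets, several to 691 and left 1606 unlisted; 20364 symbols were updated through Entrez identifiers and RefSeq (GRCm38.p6, names only). None was named from several symbols.

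From these, log2(signal + 11.4) was tested with limma 3.58.1 in R 4.3.3 (intensity trend, Benjamini-Hochberg over all 14012 probe sets past the filter, 64 controls left out), and checked on simulated data. All probe sets were kept rather than 1 per gene. The genotype fit was additive in genotype and time over 6 arrays (2 residual degrees of freedom, prior 6.67). TSA per genotype, its difference and the array after removal came from 1 fit over 7 arrays (2, prior 6.31), and the average TSA change from an additive fit (3, prior 6.07). Time points stand in for replicates, so a p-value reflects only the spread among these arrays, possibly technical, and their small number limits precision.

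All probe sets of the 9 genes were described. Of each list, up to 4 called genes per direction were named by size, and AP-1 genes in any case. The genes, lists and tests were chosen with earlier results of these data known. Alternatives were other offsets, quantile normalization, filters, no trend, 1 probe set per gene and left-out arrays.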

Additional observations from a re-analysis of the deposited data

Results flagged for a closer look

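Mmp3 and 1 probe set of Timp3 had TSA changes of opposite sign in the genotypes at both times. How many of all probe sets had such signs was not counted. For Mmp3 the change with TSA in p53-Dnmt1-null cells minus that in p53-null cells was -1.28 ± 0.61 (SE, limma adjusted p = 0.995, unadjusted p = 0.0676); its p53-Dnmt1-null signals were all below the pooled median. For Timp3 probe set 1419089_at the same difference was 0.72 ± 0.55 (limma adjusted p = 0.995), and its changes in p53-null cells were -0.01 and -0.02 at 24 and 48 h, close to 0. The other 3 Timp3 probe sets gave 0.52, 0.78 and 1.10, without opposite signs at both times.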

How the results depend on the processing

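Of 140 counts of probe sets recomputed under other settings, 131 stayed within 1.5 times. The limma counts for TSA and after removal were 0 in every setting, so that these stayed the same says little. Of the 11 lower in p53-Dnmt1-null cells, 10 or 11 were called under every alternative but 1 probe set per gene, which tests fewer by construction and called 5. These counts include Mmp3, whose direction the filter set wherever a filter was used. Mmp10 entered the test only through 1 p53-Dnmt1-null array, so the filter set its direction and a call of it supports nothing. With the offset at the pooled median, with no intensity trend and without the 48 h arrays, 1 probe set, Mmp10, was called higher, where 0 was reported. With that offset the size rule also gave 1 in place of 4 lower after removal, 0 in place of 1 higher in untreated cells, 0 in place of 1 higher and 1 in place of 2 lower at 48 h than 24 h, for the double and the single mutant in that order; with an offset of 1 it gave 2 in place of 1 lower at 48 h in p53-Dnmt1-null cells. The Mmp3 difference between the genotypes' TSA changes was -0.82 with the offset at the pooled median and -1.74 with an offset of 1, and the Mmp10 genotype difference 0.51 and 1.63. For these the cause was not tested beyond the offset, which shrinks dim differences.

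Timp3 estimates near 0 changed sign with the arrays used. Without the 48 h arrays 1419088_at was -0.24 and 1449334_at -0.26; without the untreated arrays 1419089_at was 0.22 and 1449335_at 0.0211; and 1419089_at was 0.12 without both 24 h arrays or without the p53-Dnmt1-null 24 h array alone, an alternative chosen after seeing the data. No Timp3 call changed. Timp2 1460287_at lost its call with no filter, without the trend, and without the untreated or the 48 h arrays (adjusted p of 0.125, 0.235, 0.118 and 0.252). Without the 48 h arrays limma called 1323 of all probe sets higher and 1578 lower in p53-Dnmt1-null cells, against 2464 and 2701. The average TSA change gave 122 higher and 105 lower without the 24 h arrays, 64 and 44 without the 48 h arrays and 23 and 6 without the p53-Dnmt1-null 24 h array, against 2 and 0. After removal an offset of 1 gave 3 and 9 and the pooled-median offset 7 and 0, against 2 and 0. TSA within a genotype and the array after removal could not be fitted with a time left out. The genotype fit sets the arrays of each time against each other. No further block was possible because each group held 1 array and the labels carry no replicate numbers.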

Other observations

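Most cysteine, aspartic and other matrix proteases outside the 9 genes had higher signals with TSA, without a call. Of the 14 tested, 13, all but Ctsk, were above 0 in the average over genotypes, with a median of 0.61 against 0.01 over all 8298 named genes; limma called 0. Of all named genes 51.5% were above 0, and 15.2% had an unadjusted p under 0.05, against 9 of these 14. Htra1, a secreted serine protease of the matrix, chosen after its values were seen, had 537.5, 1528.2 and 1191.8 in p53-Dnmt1-null cells at 0, 24 and 48 h and 710.1 after removal, against 554.7, 1075.3 and 1035.0 in p53-null cells. Its change with TSA was 1.11 ± 0.18 (SE, limma adjusted p = 0.0744). Cathepsin D (Ctsd), chosen in the same way, had 999.3, 1728.4, 1553.4 and 397.7 against 1922.7, 2950.8 and 3284.1. Both were above the untreated level on all 4 TSA arrays.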
